A study of Mus musculus with 4 samples.

Results

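The cell cycle genes described here are 52 mouse genes of DNA replication and mitosis, chosen by name as 26 genes that act in S phase and 26 that act in G2 and M phase. They are 52 of the 22916 genes with a symbol on the array. All 52 were found through the accession of their probes, and each gene was read from its brightest probe, the one with the highest mean signal over the arrays. By its description, the RNA came from dispersed islet cells of the pancreas of C57BL/6 mice, labelled male and 60 weeks old, 4 littermates in all. It was read on 4 one-color Agilent arrays. Cells on 2 arrays (replicates 1 and 2) had been given a scrambled peptide, and cells on the other 2 arrays (replicates 2 and 3) had been given MOTS-c, a short peptide encoded in the mitochondrial 12S rRNA gene. Both peptides were given ex vivo at 10 μM for 24 h, after the islets had been freed with collagenase and dispersed in medium with fetal bovine serum, and no array of untreated cells was analysed here. The labels do not say which littermate gave which sample, so p-values cover only these samples. The spread behind them was estimated for each gene partly from all probes tested.

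Cells copy their DNA in S phase and part the copies in M phase. Late in G1, kinases with cyclins D and E release E2F transcription factors from the retinoblastoma proteins, and E2F sites lie in the promoters of many replication genes. Genes of G2 and M phase are instead held back by the DREAM complex and later turned on by B-MYB and FOXM1 through a short element called CHR, often with CCAAT boxes bound by NF-Y a little upstream. Adult beta cells divide rarely, and less so with age, so RNA of this machinery is usually scarce in islets of old mice.

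The promoters of the members differed in these letters, and 4 of them are shown because they carry the element typical of each group. Promoters came from RefSeq (GRCm38.p6), from 250 bases before to 50 bases after each start of transcription, and 44 promoters of 41 members were in the table. Each is written 5′ to 3′ along the gene, from 250 bases before the start to base 30 after it. They are the first in the order of roles that held the element. Capitals mark E2F letters in Cdk2, the kinase of S phase entry, and in Mcm3, a subunit of the replicative helicase. They mark CHR letters and CCAAT boxes (ATTGG on the other strand) in Ccnb2, which encodes cyclin B2, and in Cdk1, the kinase of mitotic entry.
Cdk2, chr10:128705022-128705301 (-): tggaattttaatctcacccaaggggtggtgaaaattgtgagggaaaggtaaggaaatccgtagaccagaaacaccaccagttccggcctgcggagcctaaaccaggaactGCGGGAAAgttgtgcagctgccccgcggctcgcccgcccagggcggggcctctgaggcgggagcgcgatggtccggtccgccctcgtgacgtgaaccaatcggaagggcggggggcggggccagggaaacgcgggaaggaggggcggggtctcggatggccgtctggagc
Mcm3, chr1:20820283-20820562 (-): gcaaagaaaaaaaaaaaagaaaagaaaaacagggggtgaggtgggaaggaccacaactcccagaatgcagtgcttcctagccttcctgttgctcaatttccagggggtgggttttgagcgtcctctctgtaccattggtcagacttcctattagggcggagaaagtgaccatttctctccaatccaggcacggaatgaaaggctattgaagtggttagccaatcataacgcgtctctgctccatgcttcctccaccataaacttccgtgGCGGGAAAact
Ccnb2, chr9:70421525-70421804 (-): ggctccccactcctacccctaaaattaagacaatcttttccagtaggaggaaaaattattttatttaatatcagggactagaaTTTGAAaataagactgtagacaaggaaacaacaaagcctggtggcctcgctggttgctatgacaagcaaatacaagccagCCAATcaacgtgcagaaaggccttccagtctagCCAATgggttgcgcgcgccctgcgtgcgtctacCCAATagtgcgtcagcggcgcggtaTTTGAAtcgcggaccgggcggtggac
Cdk1, chr10:69352883-69353162 (-): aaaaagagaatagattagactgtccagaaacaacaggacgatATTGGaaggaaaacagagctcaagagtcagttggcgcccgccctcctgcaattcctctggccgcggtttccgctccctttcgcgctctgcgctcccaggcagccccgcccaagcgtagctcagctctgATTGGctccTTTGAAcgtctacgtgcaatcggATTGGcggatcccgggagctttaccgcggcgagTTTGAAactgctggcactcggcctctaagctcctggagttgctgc

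Searched on both strands, the letters TTTCCCGC, TTTGGCGC, TTTCGCGC or TTTGCCGC (E2F) stood in 9 of 23 promoters of S phase genes (39.1%), in 1 of 21 of M phase genes (4.76%, that of Cdk1, left in lower case above) and in 2.26% of all 32851 promoters in the table. The S phase genes that held them were Cdk2, Mcm3, Mcm5, Mcm6, Mcm7, Cdc6, Cdt1, Pola1 and Rfc3. The CHR letters TTTGAA or TTCGAA stood in 5 promoters of S phase genes (21.7%) and in 17 of M phase genes (81.0%), against 19.2% of all promoters. CCAAT stood in 13 (56.5%) and 19 (90.5%), against 37.4% of all promoters. CHR and CCAAT stood together in 17 promoters of M phase genes (81.0%) and 4 of S phase genes, against 7.52% of all promoters and 7.11% of those of protein-coding genes. In 1 member promoter, matches of different motifs overlapped. These are matches of letters, not measured binding sites.

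**Figure D1:**
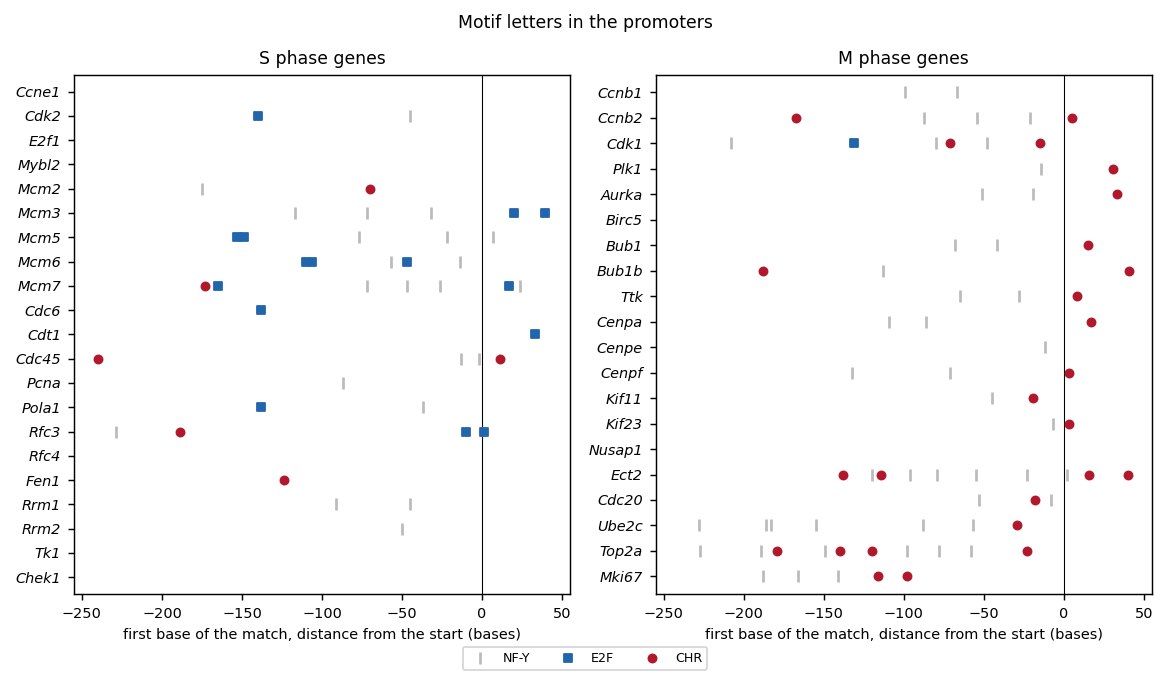
Positions of the motif letters in the promoters of the S phase genes (left) and M phase genes (right) for the 41 members with a promoter in the table, as the distance in bases of the first base of each match from the start of transcription (vertical line). CHR letters of M phase genes (red) had a median position of -18.5, with CCAAT (grey) mostly upstream, and E2F letters (blue) lie almost all among the S phase genes.

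The labels were checked first, since the members' levels depend on which cells were on the arrays. The beta cell hormones Ins1, Ins2 and Iapp were well above background on all arrays, as were the alpha cell hormone Gcg and the delta cell hormone Sst. Of 9 beta cell markers, Ucn3 was not well above background on any array and Slc2a2, the glucose transporter of mouse beta cells, only on some. Pdx1, Nkx6-1, Mafa and G6pc2 were detected on all 4. The labels give male mice, yet none of the 7 probes for Uty, Kdm5d, Ddx3y and Eif2s3y, which lie on the Y chromosome, was well above background on any array (0 of 28 pairs of probe and array). Xist, which coats an inactive X chromosome, lay at 23.7 to 33.5 times its local background. These values go against the label for sex on all 4 arrays, so they do not set the groups apart. The source of the cells beyond the labels was not tested.

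All 52 members were well above background on all 4 arrays, a call the scanner software makes for each spot, while 64.5% of all genes with a symbol were. Spot signals of S phase genes lay between 2.98 times (Ccne2) and 3158 times (Mcm6) their local background, and those of M phase genes between 13.4 times (Ttk) and 2294 times (Birc5). Mki67, the proliferation antigen Ki-67, lay at 267 to 585 times background and Top2a, the topoisomerase that untangles chromosomes, at 445 to 651 times. A further 45 replication genes and 48 mitosis genes outside the members were also all well above background on all 4 arrays. RNA of the division machinery was thus measured in both treatments, and 37 of the 52 members were among the 3869 genes of brightest signal. This differs from the scarcity usual in islets of old mice, and the reason was not tested. An array of many cells cannot tell more dividing cells from more of this RNA in each cell.

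Markers of other cell types that an islet preparation can hold were detected in part. Of 10 macrophage markers, 5 were well above background on all arrays, among them Csf1r and Itgam, and Ptprc, Adgre1, Lyz2 and C1qc were so on none. Lymphocyte markers reached this level for 1 of 7, endothelial for 2 of 6 (Cdh5, Kdr and Emcn on none), mesenchymal for 3 of 8 (Col1a1, Col3a1, Pdgfrb, Lum and Dcn on none), duct for 4 of 6 (Krt19 and Sox9 on none; the list reached at most 4.11 times background) and acinar for 4 of 8 (Cpb1, Prss2 and Pnlip on none). The log2 summed signal over each list ranged, scrambled against MOTS-c, from 13.46 to 13.49 against 13.30 to 13.58 for macrophages, from 8.70 to 8.81 against 8.73 to 8.81 for lymphocytes, from 10.68 to 10.91 against 10.77 to 11.01 for endothelial cells, from 12.24 to 12.49 against 12.27 to 12.29 for mesenchymal cells and from 8.03 to 8.38 against 8.06 to 8.31 for duct cells. The groups overlapped in these sums, which were taken before scaling across arrays. Median log2 signals of the arrays ranged from 5.92 (scrambled replicate 2) to 6.16 (MOTS-c replicate 3). For acinar cells the sum was 11.87 to 11.88 against 11.10 to 11.38, lower on both MOTS-c arrays. It rested mostly on 1 gene, Cela1, with normalized log2 signals of 11.77 and 11.90 against 11.23 and 10.92. The other acinar markers were far dimmer. Of the 4 tested, 3 were lower with MOTS-c, and Ctrb1 was higher without overlap (0.33). The part of these other cell types in the members' values was not tested.

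**Figure D2:**
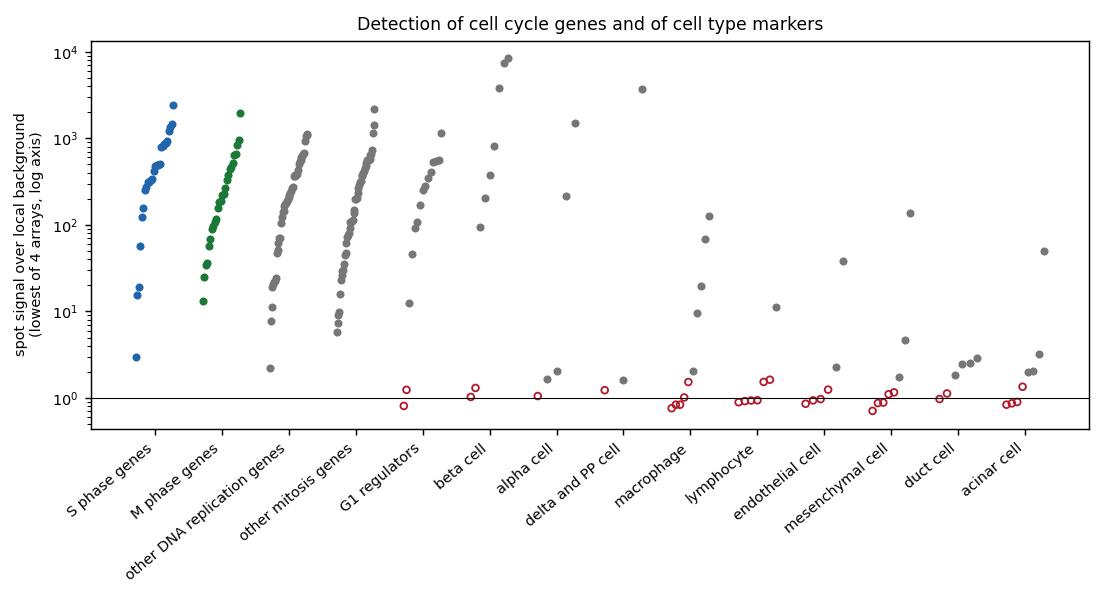
Spot signal over local background, the lowest of the 4 arrays, on a log axis, for each gene of the cell cycle lists and of the cell type marker lists, with genes sorted by this ratio within each list. Filled points were well above background on all 4 arrays and open red circles were not; all 52 members (blue, green) are filled, while many markers of macrophages, lymphocytes, endothelial and mesenchymal cells lie near 1. Probes differ in brightness, so only their height over background can be read.

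The main comparison asked whether MOTS-c changed these transcripts. In limma over 35087 probes with Benjamini-Hochberg adjustment, 0 probes of any gene passed an adjusted p of 0.05 (the smallest was 0.474), and 2755 had an unadjusted p under 0.05. The methods' t-test called 1 probe. Counted by the brightest probe, 0% of 15475 genes passed the adjusted threshold. Of the 52 members, 0 had even an unadjusted limma p under 0.05, against 8.61% of all genes, and 0 differed by 1.5-fold or more, against 5.65%. Most members have bright probes, with 37 among the 3869 genes of brightest signal (a mean log2 signal of at least 12.5), and among those genes the shares were 2.66% and 0.491%. Other settings gave 0 to 6 members under 0.05, listed in the closing section. With 2 arrays a group, an exact permutation test of a single gene cannot go below a two-sided p of 0.333. Limma combined each gene's own spread (2 degrees of freedom) with a spread drawn from all probes tested (2.64 degrees of freedom). A gene whose arrays lie close together thus has a wider interval than its own arrays give. Fen1, for example, had standard deviations of 2.3e-05 (scrambled) and 0.04 (MOTS-c) and an SE of 0.119. The 95% intervals below give the sizes of difference left possible by 2 arrays a group under this combined spread.

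The S phase genes lay slightly lower and the M phase genes slightly higher with MOTS-c. The median log2 fold change, MOTS-c minus scrambled, was -0.05 over the 26 S phase genes (9 higher, 17 lower; from -0.24 for Cdt1 to 0.34 for Pola1) and 0.12 over the 26 M phase genes (18 higher, 8 lower; from -0.50 for Cenpf to 0.51 for Kif11). Over all genes tested it was -0.002, with single genes at quartiles of -0.14 and 0.13. Both MOTS-c arrays stood above both scrambled arrays for 13 members, 4 of S phase and 9 of M phase, where 19.8% of all genes did (19.4% among the brightest 3869). Both stood below for 13 members, 12 of S phase and 1 of M phase, where 22.6% did (23.6% among the brightest 3869). The S phase counts depended on the scaling. With a shift of each array to its 75th percentile in place of quantile normalization they were 0 above and 5 below, and the M phase counts 12 and 4. Shares of all genes without overlap, or by order of arrays, were not counted under that shift, here or below. These counts therefore have no background to be set against.

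**Figure D3:**
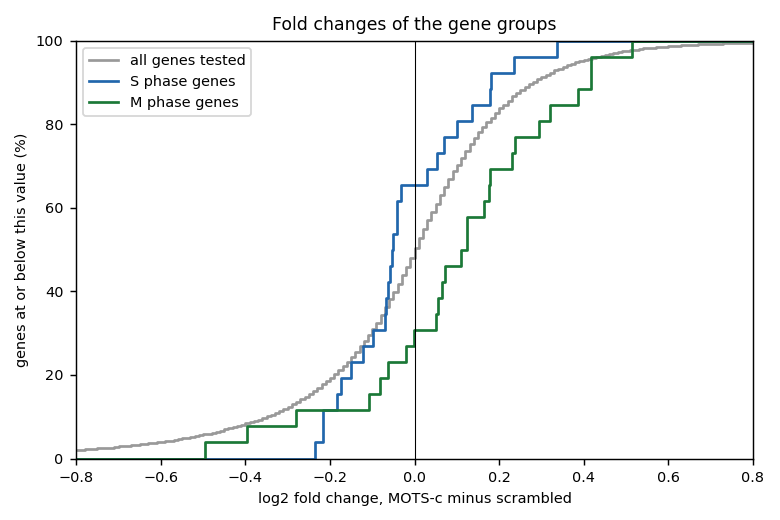
Cumulative share of genes (vertical axis, percent) at or below each log2 fold change, MOTS-c minus scrambled (horizontal axis), for the 26 S phase genes (blue), the 26 M phase genes (green) and all 15475 genes tested (grey). The M phase curve lies to the right of the others over most of its range (median 0.12), and the S phase curve is steepest around its median of -0.05.

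**Figure D4:**
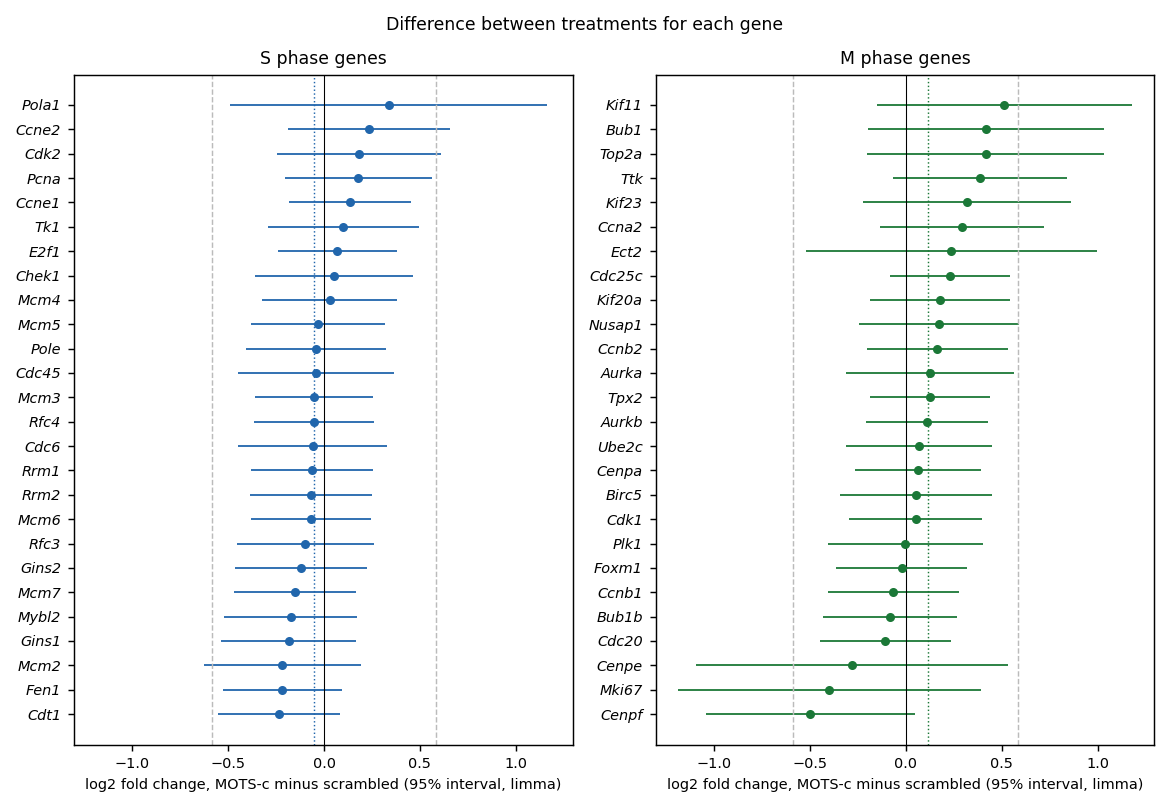
Log2 fold change of each member, MOTS-c minus scrambled, with its 95% interval from limma, sorted within S phase genes (left) and M phase genes (right). Dotted lines are the group medians and dashed lines mark 1.5-fold either way. Every interval of the 52 genes includes 0.

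Among the S phase genes, the 8 genes of licensing, by which the MCM helicase is loaded onto origins, were lower with MOTS-c for 7 of 8 (median -0.06), and 5 of them did not overlap. None passed the test. With the shift to the 75th percentile, 8 were lower (median -0.13) and 2 did not overlap. The median was -0.14 without MOTS-c replicate 2, -0.12 without scrambled replicate 1, -0.06 without scrambled replicate 2 and -0.05 without MOTS-c replicate 3. Cdt1, the loader of the helicase, had log2 signals of 15.38 and 15.31 with the scrambled peptide and 15.14 and 15.09 with MOTS-c. This was a log2 difference of -0.24 (SE 0.121, 95% interval -0.55 to 0.08, limma adjusted p = 0.719). Mcm2, a helicase subunit, read 13.81 and 13.90 against 13.79 and 13.49, a difference of -0.22 (SE 0.156) that came mostly from MOTS-c replicate 3. Mcm3 (-0.05), Mcm6 (-0.07) and Mcm7 (-0.15) also did not overlap, while Mcm5 (-0.03), Mcm4 (0.03) and Cdc6 (-0.06), the other loader, did. The helicase activators Gins1 (-0.18), Gins2 (-0.12) and Cdc45 (-0.04) were lower for 3 of 3 and lowest on MOTS-c replicate 3 for 3 of 3. Without that array, 5 of the 8 licensing genes and 2 of the 3 activators were lower. The origin recognition complex, on which the helicase is loaded and whose genes are not members, had the opposite sign. Orc1 to Orc6 were higher with MOTS-c for 6 of 6 genes, by 0.09 (Orc5) to 0.30 (Orc2), 5 of them without overlap and none past the test, and Orc5 was lower without MOTS-c replicate 2 (-0.24). These genes were singled out after their values were seen.

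Cyclin E and its kinase, which drive S phase entry, were higher with MOTS-c for 3 of 3 genes, with log2 differences of 0.14 for Ccne1, 0.24 for Ccne2 and 0.18 for Cdk2. Ccne1 read 14.22 and 14.23 with the scrambled peptide and 14.32 and 14.41 with MOTS-c, so that the groups did not overlap (SE 0.121, limma adjusted p = 0.834). Under the shift to the 75th percentile the 3 differences kept their sign and all 3 genes overlapped. Of the transcription factors of S phase entry, E2f1 differed by 0.07 and Mybl2, which encodes B-MYB, by -0.17, the latter lower on both MOTS-c arrays.

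At the replication fork, the members were mixed. Pcna, the sliding clamp of the polymerases, read 16.20 and 15.94 with the scrambled peptide and 16.27 and 16.22 with MOTS-c. The groups did not overlap, and the scrambled arrays, as single arrays, differed by 0.26. The means of 2 arrays differed by 0.18 (SE 0.146, 95% interval -0.21 to 0.56, limma adjusted p = 0.816). Leaving out scrambled replicate 2 gave 0.05, and leaving out scrambled replicate 1 gave 0.31. Pola1, the catalytic subunit of polymerase alpha, read 13.56 and 13.19 against 13.31 and 14.11. Its difference of 0.34 (SE 0.313) rested on MOTS-c replicate 3 and was -0.067 without that array. Fen1, the nuclease that trims Okazaki fragments, read 15.89 on both scrambled arrays and 15.70 and 15.64 with MOTS-c, a difference of -0.22 (SE 0.119, limma adjusted p = 0.734). The other fork genes were close to 0, with -0.04 for Pole, the leading strand polymerase, and -0.10 and -0.05 for the clamp loader subunits Rfc3 and Rfc4. The nucleotide supply genes Rrm1 (-0.06), Rrm2 (-0.07) and Tk1 (0.10), and the checkpoint kinase Chek1 (0.05), also lay near 0.

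Among the M phase genes, spindle motors and cytokinesis genes had the highest median, 0.24, and were higher with MOTS-c for 5 of 5. Kif11, the motor that pushes the spindle poles apart, read 9.60 and 9.19 with the scrambled peptide and 9.64 and 10.18 with MOTS-c. The groups touched closely (9.60 against 9.64) without overlap, with a difference of 0.51 (SE 0.252, 95% interval -0.15 to 1.18, limma adjusted p = 0.706). Kif23, a motor of the cleavage furrow, read 10.43 and 10.22 against 10.41 and 10.88, overlapping, with a difference of 0.32. Ect2 (0.24), which activates RhoA for cytokinesis, Kif20a (0.18) and Nusap1 (0.18), which bundles spindle microtubules, completed the group. All 5 were highest on MOTS-c replicate 3 and lowest on scrambled replicate 2. The median of the group was 0.07 without MOTS-c replicate 3, with 4 genes higher and 1 lower, 0.12 without scrambled replicate 2, 0.43 without scrambled replicate 1 and 0.55 without MOTS-c replicate 2. Kif11 lay at 0.24 without MOTS-c replicate 3, 0.31 without scrambled replicate 2 and 0.78 without MOTS-c replicate 2, and Kif23 at 0.09, 0.21 and 0.55.

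The spindle checkpoint and kinetochore genes were split, 3 higher and 3 lower. Bub1, a checkpoint kinase, read 11.66 and 11.21 against 11.64 and 12.06, overlapping, with a difference of 0.42 (SE 0.234). This was 0.19 without scrambled replicate 2 and 0.21 without MOTS-c replicate 3, and 0.64 and 0.63 without scrambled replicate 1 and MOTS-c replicate 2. Ttk, the kinase that starts the checkpoint, read 8.83 and 8.55 against 8.95 and 9.20, without overlap (0.39, SE 0.172, limma adjusted p = 0.688; 0.24 without scrambled replicate 2). Its other 2 probes also did not overlap. The first read 6.38 and 6.36 against 6.92 and 7.01 (0.59, limma adjusted p = 0.486), and the other 8.31 and 7.64 against 8.55 and 8.83 (0.71, limma adjusted p = 0.626). These were the only 2 of 26 further probes of the members with an unadjusted limma p under 0.05. That share was close to the one among all probes tested, where 2755 of 35087 were under 0.05. All 3 probes of Ttk were higher with MOTS-c, but they read the same gene in the same samples and are not independent.

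Cenpf, a large kinetochore protein of late G2, was the member with the lowest difference. It read 12.42 and 12.21 with the scrambled peptide and 11.58 and 12.05 with MOTS-c, without overlap (-0.50, SE 0.206, 95% interval -1.04 to 0.05, limma adjusted p = 0.674). The difference was -0.26 without MOTS-c replicate 2 and -0.74 without MOTS-c replicate 3. Cenpe, a kinetochore motor, read 13.09 and 12.67 against 12.22 and 12.98 (-0.28), and Bub1b (-0.08) and Cenpa (0.07), the histone of centromeres, lay near 0. Cenpe, Cenpf and Mki67 were among the 9 of 26 M phase genes that were lowest on MOTS-c replicate 2, against 14.5% of all genes.

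Mki67 and Top2a, a pair often used to mark dividing cells, had differences of opposite sign. Mki67 read 14.49 and 14.15 with the scrambled peptide and 13.54 and 14.31 with MOTS-c. The MOTS-c arrays, as single arrays, differed by 0.77 on the log2 scale. The means of 2 arrays differed by -0.40 (SE 0.299, 95% interval -1.18 to 0.39, limma adjusted p = 0.799). Top2a read 14.08 and 13.85 against 14.09 and 14.67, without overlap by a narrow margin (0.42, SE 0.235, 95% interval -0.20 to 1.03, limma adjusted p = 0.741), and its second probe gave 0.42. Both differences turned on single arrays. Without MOTS-c replicate 2 that of Mki67 was -0.012 and that of Top2a 0.71. Without MOTS-c replicate 3 they were -0.79 and 0.13. Without scrambled replicate 1, that of Mki67 was -0.23.

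In the group of cyclins A and B and CDK1, Ccna2, the cyclin of S and G2 phase, differed by 0.29, Cdc25c, the phosphatase that activates CDK1, by 0.23 and Ccnb2 by 0.16, each without overlap, while Cdk1 (0.05) and Ccnb1 (-0.06) lay near 0. Cdc25c read 11.87 and 11.92 with the scrambled peptide and 12.13 and 12.12 with MOTS-c (SE 0.118, limma adjusted p = 0.719). The mitotic kinases Plk1 (-0.001), Aurka (0.12) and Aurkb (0.11), with Birc5 (0.05), the survivin of the passenger complex, and Tpx2 (0.12), the activator of Aurora A, were highest on MOTS-c replicate 3 for 5 of 5 genes, a count that was 2 under the shift to the 75th percentile. Foxm1 (-0.02) and the anaphase genes Cdc20 (-0.11) and Ube2c (0.07) were close to 0.

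M phase genes differed between the arrays of one treatment as well as between the treatments. MOTS-c replicate 3 was above MOTS-c replicate 2 for 25 of 26 M phase genes, with a median difference of 0.20 log2, where 38.4% of all genes were higher on replicate 3. It was the highest of the 4 arrays for 19 of 26 and the lowest for 0, against 24.3% and 38% of all genes. Scrambled replicate 1 was above scrambled replicate 2 for 19 of 26, with a median difference of 0.16, against 47% of all genes. These differences between single arrays cannot be ranked against one between means of 2 arrays, which vary less. The median difference between treatments was 0.12. Without MOTS-c replicate 3 it was 0.03 (0.02 over all genes), with 14 genes higher and 12 lower. Without scrambled replicate 2 it was 0.06 (0.004 over all genes).

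S phase genes had another order of arrays. They were lowest on MOTS-c replicate 3 for 14 of 26 genes, against 38% of all genes. That array was above MOTS-c replicate 2 for 6 of 26, against 38.4% of all genes, which thus leaned the same way. Without MOTS-c replicate 3 the median was -0.02 (0.02 over all genes), with 12 genes higher and 14 lower. Under the shift to the 75th percentile, MOTS-c replicate 3 stayed above replicate 2 for 22 of 26 M phase genes and 3 of 26 S phase genes, but was the highest array for 12 M phase genes and not 19. All arrays lay on 1 slide. The Cy3 signal was well above background for 65.0% of gene spots on MOTS-c replicate 3 and 61.6 to 62.9% on the others, and the part of this in the order of arrays was not tested.

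**Figure D5:**
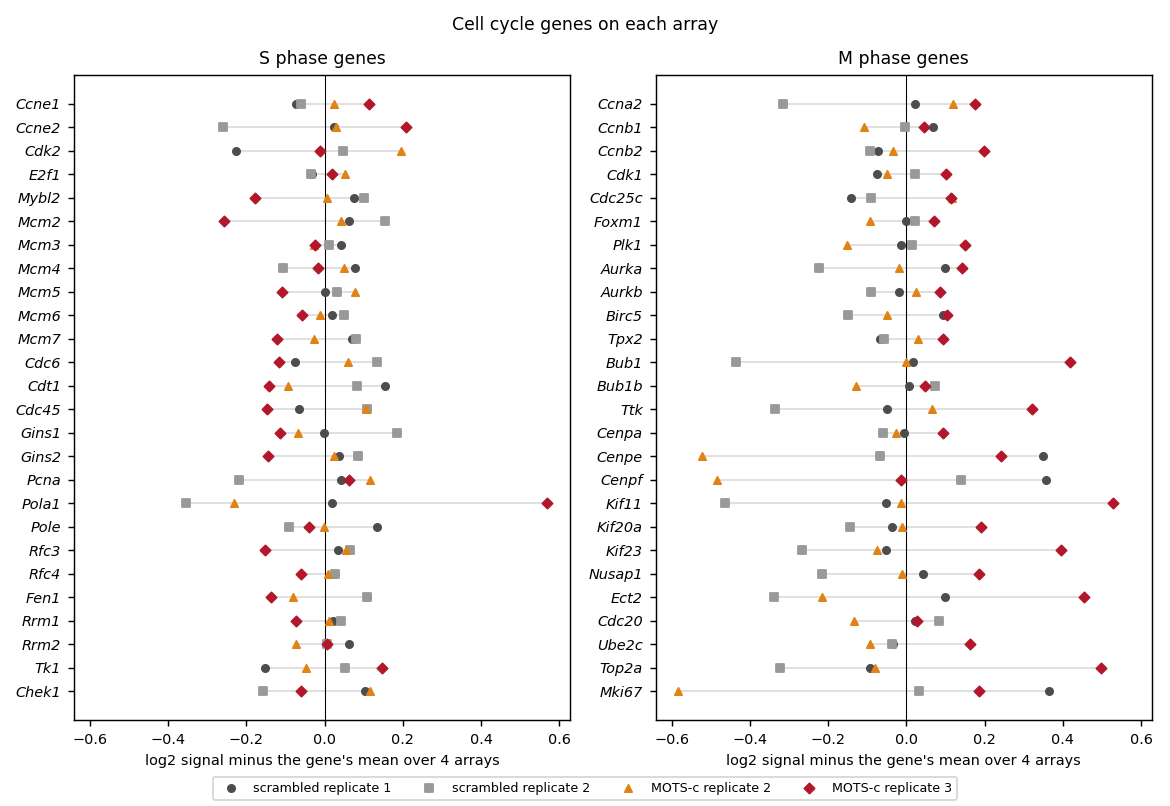
Log2 signal on each array minus the gene's mean over the 4 arrays, for S phase genes (left) and M phase genes (right) in the order of their roles. Circles and squares are scrambled replicates 1 and 2, triangles and diamonds MOTS-c replicates 2 and 3; the diamonds lie furthest right for 19 of 26 M phase genes and furthest left for 14 of 26 S phase genes.

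Genes of the same pathways outside the members also had 0 calls in replication and mitosis. Of 45 other replication genes, 29 were higher and 16 lower with MOTS-c (median 0.05), with none at an unadjusted limma p under 0.05. The sign of their median was the opposite of that of the S phase members. Of 48 other mitosis genes, 35 were higher and 13 lower (median 0.10), with 0 under 0.05, and 33 of 48 were highest on MOTS-c replicate 3. Of 15 regulators of G1, 13 were detected and Ccnd1 and Cdk6, the cyclin D1 and CDK6 genes, were not well above background on any array. Their median was -0.03, and 1 of 13 (7.69%) had an unadjusted limma p under 0.05, near the 8.61% of all genes. This was Cdkn2b, the CDK4 and CDK6 inhibitor p15, which read 12.24 and 12.10 with the scrambled peptide and 11.82 and 11.54 with MOTS-c (-0.49, SE 0.157, limma adjusted p = 0.568).

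Most members had the same sign on all their probes. Of 23 members with more than 1 tested probe, 17 did, and the largest gap between probes of a gene was 0.32 log2, for Ttk. The 6 with both signs were Ccnb1, Cdc20, Cdc45, Cdc6, Foxm1 and Mcm3, all near 0 on their brightest probe.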

How the data were processed

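Islet cell RNA was hybridized to 4 one-color Agilent arrays. The authors extracted spots with Feature Extraction 11.0.1.1 (per the file headers) and deposited each spot's processed intensity, which is corrected for background on its own array but not scaled across arrays, with a rounded value table of the same arrays. After control spots and outliers had been removed, intensities were taken to log2 and averaged per probe. Quantile normalization used the 35087 of 56605 probes that the scanner software called well above background on 2 or more arrays. The methods filter on Flag A, which is not defined in the sources used here. MOTS-c was compared with scrambled by limma 3.58.1 in R 4.3.3 with Benjamini-Hochberg adjustment (residual degrees of freedom 2, prior 2.64), and motifs and plots used Python 3.11.15, pandas 2.3.3 and matplotlib 3.10.9. Genes were named by accession for 32994 probes and by symbol for 12, with 23599 unnamed. Groups came from the treatment labels and replicate numbers from the sample titles.

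All members are described. Values on every array were planned for Mki67, Top2a, Pcna and members at an unadjusted p under 0.05, and for the other genes they were chosen after the values were seen. The members, gene lists and motifs were chosen with earlier results of these data known. The steps were tested on simulated data. Alternatives were a 75th percentile shift, normexp correction (offset 50, median spot signals), the authors' rounded values, other probe filters, leaving out each array, limma with a trend, the methods' t-test and each gene's mean over its probes. The 3869 genes of brightest signal were added as a background after seeing the data. The number of arrays limits the precision.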

Additional observations from a re-analysis of the deposited data

How the results depend on the processing

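The median log2 fold changes kept their sign under every alternative tried, from -0.10 to -0.02 for S phase genes and from 0.03 to 0.18 for M phase genes. The median over all genes moved too, from -0.03 without MOTS-c replicate 2 to 0.02 without MOTS-c replicate 3. In that last setting the M phase median of 0.03 lay close to it. All 52 members were also detected by the other detection call and by any probe of the gene, the 2 alternatives run for detection. The count of members at an unadjusted p under 0.05 was 0 in limma with quantile normalization. It was 1 of 52 (Cenpf) with the 75th percentile shift, where 8.09% of all genes were under 0.05. Normexp correction gave 3 (Ccna2, Cenpf, Ttk), against 11.8% of all genes. With no filter on dim probes it was 3 (Cdc25c, Cdt1, Fen1), against 9.36%. Limma with a trend gave 6 of 52 (Ccna2, Cdt1, Cenpf, Fen1, Kif11, Top2a), against 11.6%. The methods' t-test gave 3 (Cdc25c, Cdt1, Fen1), against 7.86%. That t-test also called 1 probe of all genes at an adjusted p under 0.05, where limma called 0. The cause was not tested. Leaving out 1 array at a time gave 0 to 4 members, with 4 without MOTS-c replicate 2 (Kif11, Kif23, Pola1, Top2a) and 3 without MOTS-c replicate 3 (Cenpe, Cenpf, Mki67). Members higher without overlap then ranged from 16 to 26 and members lower without overlap from 17 to 21, where fewer arrays make overlap rarer. The shares of all genes without overlap were not counted with an array left out. Pola1 turned to -0.067 without MOTS-c replicate 3 and was 0.73 without MOTS-c replicate 2. A lone array was assumed to vary like the other group. With 1 slide, no slide block could be fitted. No paired analysis was possible because the groups share only replicate number 2.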
